A study of Mus musculus with 8 samples.

Results

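Cycling chondrocytes were cartilage cells that held RNA of the proliferation genes Top2a and Mki67. They were chosen cell by cell from single-cell RNA sequencing of mouse femora, of which some had been fractured. A barcode was kept with 500 to 6000 detected genes and at most 25% of its unique molecular identifiers (UMIs, each standing for 1 captured RNA molecule) from mitochondrial genes. A member then held at least 40 UMIs per 10000 of the cartilage genes Acan, Hapln1 and Matn3 in sum, under 10 per 10000 of Col10a1, at most 1 UMI of Ihh, and at least 3 UMIs of Top2a and Mki67 in sum. These limits gave 1030 members among 45328 cells that passed the quality limits and 48903 barcodes in all.

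Growth plate cartilage lengthens bone through an ordered series of cells. Slowly dividing resting chondrocytes feed columns of dividing flat cells, and these leave the cell cycle, switch on Ihh and then Col10a1, and enlarge as hypertrophic chondrocytes before bone replaces them. A fracture that heals with a callus runs much of the same program, with chondrocytes that arise from the periosteum. Top2a, encoding the topoisomerase that untangles sister chromatids, and Mki67, encoding a protein that coats mitotic chromosomes, are both made mainly from S phase to mitosis.

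The animals were C57BL/6 female mice, wild type where the labels state it. The Control group was unfractured bone at 12 weeks of age. In the Fracture group a leg was broken by bending at 10 weeks, held with an intramedullary nail and taken at day 14. The sample titles were read as 2 cell preparations a group with 2 libraries each, a reading that no label states outright, and cells of blood lineages, CD45 and CD117 had been depleted with magnetic beads. The libraries of a preparation were added, so every comparison rests on n = 2 preparations a group. The labels do not tie preparations to animals, so p-values measure the spread between these preparations only.

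The 8 libraries held between 56543151 and 89126291 UMIs. Control barcodes reached down to 1 UMI and Fracture barcodes to 1929 UMIs. The 290 genes whose symbols start with U had UMIs in 6 of the 8 libraries and were not analysed here. No member barcode was found in more than 1 of the 8 libraries.

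The Control preparations held 192 and 56 members and the Fracture preparations 383 and 399. Single libraries held between 23 and 214, and the 2 libraries of Control preparation 2 were the smallest. The median member carried 20 UMIs of Top2a and Mki67 (24 in Control and 19 in Fracture) and the highest carried 147. Both genes were found in 968 members (94.0%). At the limit, 61 members had exactly 3 UMIs, and 134 otherwise matching cells with 2 UMIs and 548 with 1 UMI stayed outside. These values chose the members and are given as a description.

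**Figure D1:**
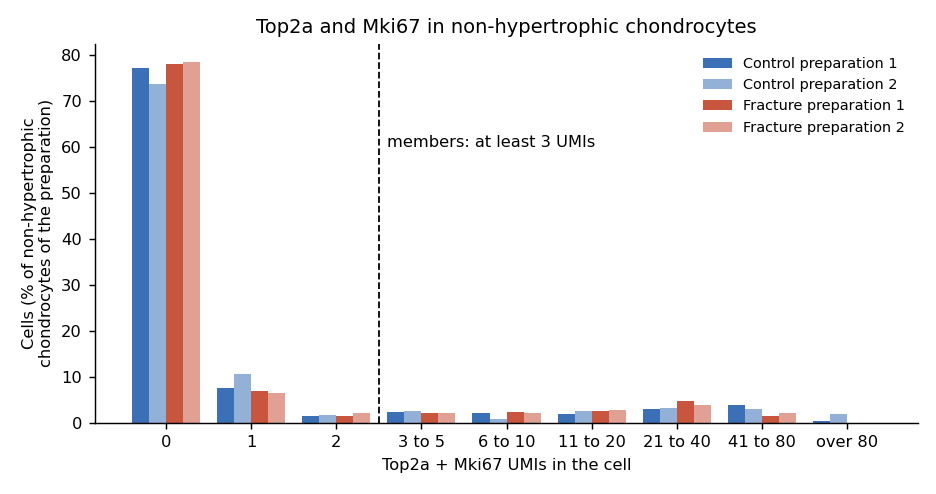
Share of the non-hypertrophic chondrocytes of each preparation (y axis, %) by their summed Top2a and Mki67 UMIs (x axis), with Control preparations in blue and Fracture preparations in red. Between 73.7% and 78.5% of cells held 0 UMIs, and the members to the right of the dashed line spread from 3 UMIs to over 80.

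Members also lay near the other limits. In the chondrocyte sum 18 members lay at 40 to 50 per 10000 and 24 excluded cells at 30 to 40. For Col10a1 96 members lay at 5 to 10 per 10000, all but 1 of them in Fracture, and 16 excluded cells at 10 to 20. For Ihh 59 members held 1 UMI, and 14 cells with 2 UMIs were excluded. A further 18 barcodes met every limit except that of 6000 genes, 10 of them in Control and 8 in Fracture.

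The label was checked with genes that the limits did not use. Levels are given as CPM, the counts of a gene scaled to the total UMIs of the summed cells (counts per 1000000). Col2a1, the main collagen of cartilage, stood at 57791 and 53855 CPM in Control and 63938 and 64689 CPM in Fracture. Col9a1, encoding a collagen on the surface of these fibrils, stood at 4874 and 4409 CPM in Control and 5049 and 4676 CPM in Fracture, and the chondrocyte transcription factor Sox9 at 1153 and 1071 CPM in Control and 769 and 786 CPM in Fracture. Mxd3, a MYC-network transcription factor of S phase, stood at 124 and 130.3 CPM in Control and 110.3 and 102 CPM in Fracture, against 0.399 to 0.721 CPM in otherwise matching cells with 0 UMIs of Top2a and Mki67. Pbk, a kinase of mitosis, stood at 266 and 312 CPM in Control and 241 and 230.03 CPM in Fracture. Both the cartilage and the cell cycle part of the label held in all 4 preparations. This is a description, since related genes chose the members and Mxd3 and Pbk are markers that came with the rule.

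Most members also held a few UMIs of markers of other cells. Only 37 of 1030 held under 3 UMIs of blood, endothelial, marrow stroma, osteoblast, smooth muscle and osteoclast markers in sum. With limits set on those markers, 28 (14.6%) and 11 (19.6%) members of the Control preparations and 42 (11%) and 40 (10.0%) of the Fracture preparations counted as mixed. Summed over 14 blood markers the level was 1430.1 and 4556 CPM in Control and 2183 and 3542 CPM in Fracture. Prss34, a basophil protease, made up most of this sum in Control preparation 1, at 1089.6 CPM, and the haemoglobin genes most of it in the other 3 preparations, while Ptprc, encoding CD45, stood at 4.27 and 0.911 CPM in Control and 0.544 and 0.161 CPM in Fracture. Summed over 5 endothelial markers it was 29.9 and 12.8 CPM in Control and 87.5 and 102 CPM in Fracture. Summed over 5 markers of marrow stroma it was 146 and 39.2 CPM in Control and 69.8 and 43.8 CPM in Fracture, and over 5 osteoblast markers 1054 and 480.3 CPM against 652 and 631 CPM. Summed over 5 fibroblast markers it was 3.42 and 0.911 CPM in Control and 71.7 and 69.2 CPM in Fracture. The smooth muscle sum was between 5.47 and 50.7 CPM and the osteoclast sum between 79.3 and 92.7 CPM, with Ocstamp and Atp6v0d2 at 0 in Control. Members were deeper in Control, with medians of 19458 and 20766 UMIs against 14238 and 15148 in Fracture. Each list was therefore also counted without mixed cells, and the counts that moved are given with the markers of other cells.

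The comparison class was the 6038 non-cycling chondrocytes, which met the same cartilage limits and held 0 UMIs of Top2a and Mki67. The cells were chosen by this contrast, so the following levels are a description with no test. The classes also differed in mixed cells. Over the blood limit lay 26 of 248 Control and 34 of 782 Fracture members, against 40 of 1382 and 58 of 4656 non-cycling cells. Over the osteoblast limit lay 8 Control and 15 Fracture members, against 97 and 249 non-cycling cells. What this adds to the levels was not tested. Of 6079 genes with a mean of at least 20 CPM in either class, 488 (8.03%) were at least 2-fold higher in members in all 4 preparations and 25 (0.411%) at least 2-fold lower. Among the list genes at that level, the higher ones included 14 of 14 genes of replication licensing, 18 of 18 kinetochore genes, 29 of 29 spindle and cytokinesis genes and 17 of 17 genes of chromosome structure. They also included 21 of 23 DNA synthesis genes, 19 of 20 mitotic kinases and checkpoint genes, 19 of 24 cyclins, kinases and their regulators, and 11 of 12 DNA repair genes. The other 19 genes of these 8 lists lay under 20 CPM in both classes.

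The separation was widest for mitotic genes. After Top2a and Mki67 themselves the 8 genes with the largest lowest ratio were Pbk, Cenpf, Hmmr, Prc1, Birc5, Cenpe, 2810417H13Rik and Tpx2. Cenpf, encoding a kinetochore protein, stood at 671 and 632 CPM in Control and 608 and 587 CPM in Fracture in members and at 3.27 and 2.2 CPM in Control and 2.51 and 3.38 CPM in Fracture in non-cycling cells, a log2 ratio of 7.07 to 7.63 over the 4 preparations with 1 CPM added to each level. Birc5, encoding survivin of the chromosomal passenger complex, stood at 512 and 529.5 CPM in Control and 514 and 489 CPM in Fracture in members against 3.69 and 5.59 CPM in Control and 4.5 and 4.33 CPM in Fracture. 2810417H13Rik, encoding a PCNA-binding factor of S phase, had a log2 ratio of 6.23 to 6.37. Genes of replication were less far apart. At that level the licensing list had a median log2 ratio of 2.75 and the DNA synthesis list of 2.598, against 5.55 for the spindle list, 5.27 for the kinetochore list and 0.06 for all 6079 genes. Mcm2, a subunit of the replicative helicase, stood at 74.7 and 98.4 CPM in Control and 54.7 and 51.5 CPM in Fracture in members and at 8.67 and 7.98 CPM in Control and 8.69 and 6.95 CPM in Fracture in non-cycling cells.

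Promoters are shown for 5 of these genes because the mitotic set shared short sequence motifs that the rule did not use. The sequences run from 250 bases before to 50 bases after the start of the gene (RefSeq, GRCm38.p6), written 5′ to 3′ along the gene's strand. Capitals mark TTTGAA, the core of the cell cycle homology region, CCAAT, the box bound by NF-Y, and GGCGGGAA, an E2F-type site, each on either strand, and a base could belong to more than 1 of them.
Top2a (chr11:99024140-99024439, minus strand): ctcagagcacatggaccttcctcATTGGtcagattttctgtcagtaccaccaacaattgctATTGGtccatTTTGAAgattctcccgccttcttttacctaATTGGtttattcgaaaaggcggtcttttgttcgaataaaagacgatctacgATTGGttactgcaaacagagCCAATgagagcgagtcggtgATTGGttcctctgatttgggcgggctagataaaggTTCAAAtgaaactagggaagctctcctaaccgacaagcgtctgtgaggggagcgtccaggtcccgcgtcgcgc
Mki67 (chr7:135716330-135716629, minus strand): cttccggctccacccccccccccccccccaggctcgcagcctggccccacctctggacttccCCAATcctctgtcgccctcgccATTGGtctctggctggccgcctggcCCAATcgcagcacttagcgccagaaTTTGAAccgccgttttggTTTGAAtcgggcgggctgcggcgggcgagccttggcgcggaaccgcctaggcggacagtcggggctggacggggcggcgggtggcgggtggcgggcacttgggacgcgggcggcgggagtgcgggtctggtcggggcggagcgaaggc
Cenpf (chr1:189688037-189688336, minus strand): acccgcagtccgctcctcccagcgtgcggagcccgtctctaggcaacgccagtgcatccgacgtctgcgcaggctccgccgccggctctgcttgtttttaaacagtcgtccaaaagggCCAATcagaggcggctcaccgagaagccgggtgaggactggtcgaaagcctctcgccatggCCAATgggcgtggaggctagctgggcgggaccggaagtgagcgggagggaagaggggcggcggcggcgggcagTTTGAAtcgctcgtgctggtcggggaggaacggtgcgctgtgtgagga
Mcm2 (chr6:88898731-88899030, minus strand): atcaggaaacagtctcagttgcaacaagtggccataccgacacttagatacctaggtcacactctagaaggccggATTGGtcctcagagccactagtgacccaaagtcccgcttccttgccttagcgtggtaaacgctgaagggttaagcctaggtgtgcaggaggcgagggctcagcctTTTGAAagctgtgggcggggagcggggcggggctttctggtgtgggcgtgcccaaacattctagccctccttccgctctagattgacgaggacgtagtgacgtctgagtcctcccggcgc
Mxd3 (chr13:55329682-55329981, minus strand): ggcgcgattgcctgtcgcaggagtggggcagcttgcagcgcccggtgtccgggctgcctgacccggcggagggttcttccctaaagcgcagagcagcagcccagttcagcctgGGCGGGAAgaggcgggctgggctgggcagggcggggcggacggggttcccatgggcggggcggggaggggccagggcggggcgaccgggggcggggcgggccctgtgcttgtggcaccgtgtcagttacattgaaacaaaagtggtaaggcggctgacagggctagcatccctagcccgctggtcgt
The Top2a promoter held 2 TTTGAA and 6 CCAAT matches and that of Mki67 2 and 3. The Cenpf promoter held 1 and 2, that of Mcm2 1 of each, and that of Mxd3 neither but 1 GGCGGGAA. Among the 58 promoters found for the 68 genes of mitotic kinases, kinetochore and spindle, 38 (65.5%) held TTTGAA, 40 (69.0%) CCAAT and 2 (3.45%) GGCGGGAA. Among the 36 found for the 44 genes of licensing and DNA synthesis, 7 (19.4%) held TTTGAA, 22 (61.1%) CCAAT and 7 (19.4%) GGCGGGAA. Over the promoters of all 27025 genes, 1 each, the shares were 18.1%, 37.9% and 2.24%. A match is a string of letters and not a measured binding site.

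The 10 genes furthest below the non-cycling level were Ogn, Ibsp, Prg4, Tcp11l2, Igf1, Cd200, Ppp1r3c, Pcsk5, Dio2 and Igfbp6. Ogn, encoding the proteoglycan osteoglycin, stood at 12.5 and 6.38 CPM in Control and 29.9 and 32.3 CPM in Fracture in members and at 72.9 and 58.4 CPM in Control and 138 and 147 CPM in Fracture in non-cycling cells. Ibsp, encoding bone sialoprotein of late cartilage and bone, stood at 143 and 94.8 CPM in Control and 861 and 684 CPM in Fracture against 1276 and 532 CPM in Control and 3381 and 3281 CPM in Fracture. Prg4, encoding the lubricin of joint surfaces, stood at 4.56 and 4.56 CPM in Control and 11.6 and 10.9 CPM in Fracture against 432 and 190.1 CPM in Control and 52.7 and 39.9 CPM in Fracture. Of the 5 resting zone genes with a mean of at least 20 CPM in either class 2 were at least 2-fold lower in all 4 preparations, and of the 19 cartilage matrix genes none was 2-fold apart in all 4 preparations in either direction.

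**Figure D2:**
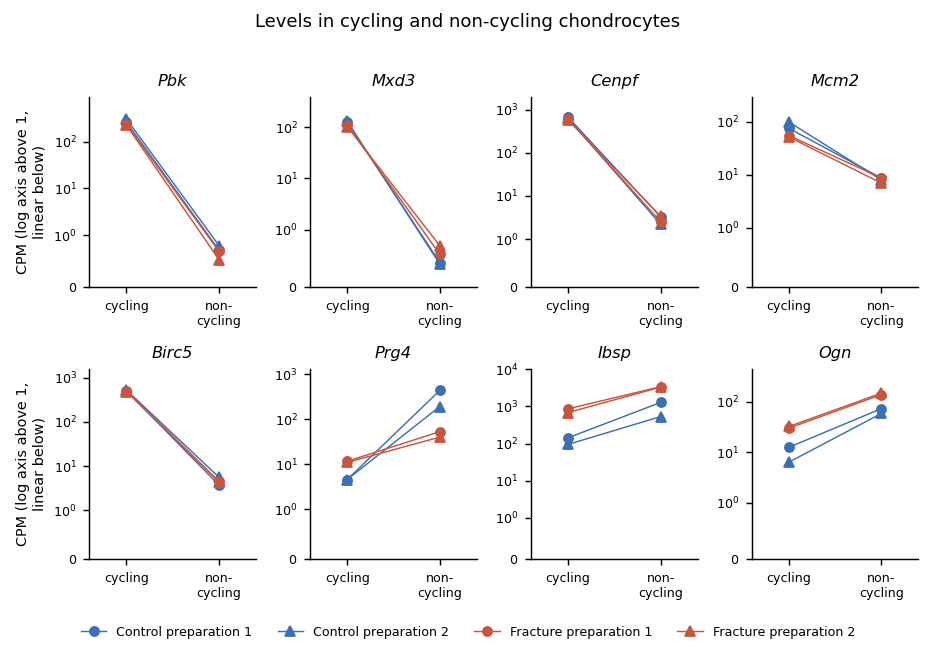
Level of 8 named genes (CPM, log axis above 1 and linear below) in cycling and non-cycling chondrocytes, with 1 line for each preparation (Control blue, Fracture red). The 5 cell cycle genes were higher and Prg4, Ibsp and Ogn lower in cycling cells in every preparation.

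The share of members among non-hypertrophic chondrocytes was close in the 2 groups. It was 13.6% (192 of 1408 cells, 95% Clopper-Pearson interval 11.9 to 15.5) and 14.0% (56 of 399, 10.8 to 17.8) in Control. In Fracture it was 13.4% (383 of 2855, 12.2 to 14.7) and 12.9% (399 of 3088, 11.8 to 14.2). Both Fracture shares lay just under both Control shares, with a mean difference of -0.668 percentage points, inside the intervals of single preparations, which cover counting error only. The two-sided exact permutation test gave p = 0.333, the smallest that 2 against 2 preparations allow. With every cell thinned to 3000 UMIs, which left out 97 Control and 0 Fracture cells that were shallower, the share that held either gene was 15.3% and 15.2% in Control and 15% and 14.5% in Fracture.

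Chondrocytes further along the series held these genes less often at equal depth. Among cells with over 1 Ihh UMI and Col10a1 under the limit, the thinned share was 4.39% and 4.86% in Control and 4.01% and 4.54% in Fracture. Among cells with Col10a1 at 10 per 10000 or more it was 4.65% and 2.82% in Control and 3.51% and 3.59% in Fracture. In all 4 preparations the non-hypertrophic cells were higher, by a mean of 10.5 points over the Ihh cells and 11.4 points over the Col10a1 cells (exact paired permutation test, p = 0.125 each, the smallest for 4 pairs, and unchanged by Benjamini-Hochberg adjustment over the 3 paired comparisons of this kind). As a rough measure of free RNA, cells with at least 200 osteoblast marker UMIs per 10000 and a chondrocyte sum under 5 were taken. Dividing cells among them were not told apart from free RNA. These osteoblast-marker cells gave 2.90% and 4.90% in Control and 1.79% and 2.10% in Fracture. Their median depth was 20469 and 24823 UMIs in Control and 11479 and 12550.0 UMIs in Fracture, against 14157 and 17923 and 11383 and 11993 UMIs in the non-hypertrophic cells. In Control preparation 2 neither the Ihh nor the Col10a1 cells were above this background, while the non-hypertrophic cells were above it in every preparation.

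**Figure D3:**
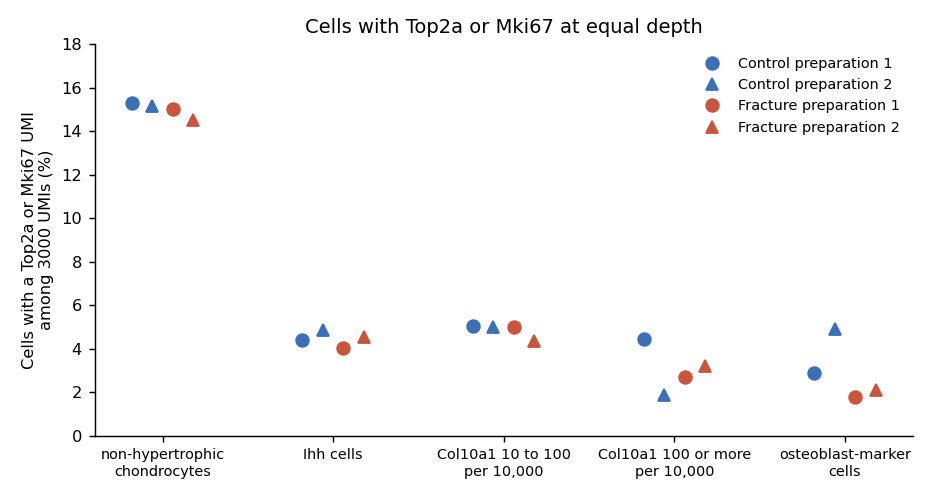
Share of cells in which Top2a or Mki67 was found among 3000 UMIs drawn from each cell (y axis, %), by cell class (x axis), with 1 point for each preparation. Non-hypertrophic chondrocytes lay between 14.5% and 15.3%, and the other classes between 1.79% and 5.03%.

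Within the non-hypertrophic cells, those with RNA of the Serpina1 genes (encoding alpha-1-antitrypsin, a protease inhibitor) held Top2a or Mki67 more often in every preparation. Among cells with at least 1 Serpina1 UMI after thinning, 15.9% and 16.1% in Control and 22.5% and 19.7% in Fracture held Top2a or Mki67. Among cells without one the shares were 13.9% and 12.0% in Control and 13.5% and 13.5% in Fracture. The difference was positive in 4 of 4 preparations, between 1.98 and 8.96 points (exact paired permutation test, p = 0.125, the smallest for 4 pairs). Total Serpina1 RNA itself was much lower in Fracture, as given further on.

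Members were divided by phase with genes outside the rule. After thinning to 3000 UMIs, a member was counted as S-leaning when its UMIs of 44 replication genes exceeded those of 70 mitotic genes (the 68 of the mitotic kinase, kinetochore and spindle lists with Ccnb1 and Ccnb2). S-leaning cells made up 17.4% and 16.9% of members in Control and 12.8% and 13.4% in Fracture. The 2 Fracture preparations were both lower, by a mean of 4.04 points. The exact two-sided permutation test gave p = 0.333, the smallest possible here. In single libraries without thinning the share ran from 13.4% to 24.2% in Control and from 12.4% to 17.3% in Fracture, so libraries of the groups overlapped. Without mixed cells the difference was -2.38 points. Control members were deeper, with a median of 19491.5 UMIs against 14611 in Fracture, while the limit on Top2a and Mki67 UMIs did not scale with depth. With that limit scaled to the UMIs of each cell, the S-leaning share was 12.7% and 14.4% in Control and 11% and 11.7% in Fracture. The difference was then -2.24 points. How much of the difference goes with depth was not tested.

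Fracture was compared with Control in the summed members by edgeR's quasi-likelihood test over 11665 genes with Benjamini-Hochberg adjustment. At an adjusted p under 0.05, 1124 genes (9.64%) were higher and 753 (6.46%) lower in Fracture. In the non-cycling cells of the same preparations, 2810 of 14686 genes (19.1%) were higher and 2353 (16.0%) lower. Their sums held 14076038 and 5012995 UMIs in Control and 26244389 and 30501582 in Fracture. Those of members held 3509543 and 1097173 UMIs in Control and 5519238 and 6216674 in Fracture. Deeper sums allow more calls, so these shares do not compare the size of the change in the 2 classes. The median log2 fold change of all genes in members was -0.01. DESeq2 called 571 genes higher and 239 lower in members.

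Few mitotic genes of the members changed. Of the 30 spindle and cytokinesis genes 0 were higher and 1 lower, with a median log2 fold change of 0.00. Of 20 mitotic kinases and checkpoint genes 1 was higher and 1 lower (median 0.02), and of 18 kinetochore genes 1 was higher and 2 lower (median -0.16). The kinetochore share of lower genes was above the 6.46% of all genes and the other shares were below theirs. The kinetochore median lay near that of the 25 DNA synthesis genes (-0.20). Without mixed cells these medians were -0.23 and -0.22, so the kinetochore list did not stand apart from the DNA synthesis list. Cenpf stood at 671 and 632 CPM in Control and 608 and 587 CPM in Fracture and Tpx2, encoding a spindle assembly factor, at 267 and 299 CPM in Control and 294 and 295 CPM in Fracture, and neither passed the test. Stmn1, encoding a microtubule-destabilising protein, was the gene called in the spindle list, at 400.1 and 523 CPM in Control and 172 and 179 CPM in Fracture, a log2 fold change of -1.28 ± 0.14 (SE) with adjusted p = 0.00038 in edgeR. Its Control and Fracture preparations did not overlap.

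Genes of replication, chromatin and repair were lower more often than the 6.46% of all genes. Of 18 licensing genes 0 were higher and 6 lower (median -0.36), of 25 DNA synthesis genes 0 and 3 (median -0.20), of 18 DNA repair genes 0 and 5 (median -0.31), and of 17 chromosome structure genes 0 and 4 (median -0.20). Cdc7, encoding the kinase that fires replication origins, stood at 49 and 39.2 CPM in Control and 24.1 and 21.6 CPM in Fracture (log2 fold change -0.90 ± 0.15 (SE), edgeR adjusted p = 0.0037). Slbp, which binds histone mRNA in S phase, stood at 35 and 42.8 CPM in Control and 20.5 and 15.6 CPM in Fracture (log2 fold change -0.96 ± 0.19 (SE), edgeR adjusted p = 0.0077). Pcna, the sliding clamp of DNA polymerase, stood at 117 and 129 CPM in Control and 75 and 76.1 CPM in Fracture (log2 fold change -0.58 ± 0.11 (SE), edgeR adjusted p = 0.0054). For all 3 genes both Fracture values lay below both Control values. Mcm2, Mcm7 and Cdc6, further licensing genes, were also called lower, with log2 fold changes of -0.54, -0.45 and -0.71. The repair genes Chek1, Xrcc2 and Rad54l fell by 0.60 to 0.93 on the log2 scale, and the edgeR adjusted p of Rad54l was 0.0497.

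Most of these calls were small and near the limit. DESeq2 called 239 of all 11665 genes lower. They included 1 of 18 licensing genes, 2 of 25 DNA synthesis genes, 0 of 18 repair genes and 3 of 17 chromosome structure genes. Without Fracture preparation 1 the edgeR adjusted p of Cdc6, Mcm7, Chek1, Xrcc2 and Rad54l was 0.17, 0.083, 0.067, 0.067 and 0.25, and that of Pcna 0.052. Without Fracture preparation 2 that of Cdc6, Mcm2, Mcm7, Xrcc2 and Rad54l was 0.12, 0.088, 0.27, 0.15 and 0.082. The S-leaning share is counted with the same licensing and DNA synthesis genes, so it is no separate measure of them. Fewer members in S phase and less of this RNA per member in S phase cannot be told apart in these sums. These lists were not counted with the limit scaled to depth, under which the S-leaning difference was smaller. Over all genes edgeR then called 1040 higher and 709 lower. Among the named genes of every kind 11 lost their call under that limit and 1 gained one, while 121 stayed the same.

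The chromatin genes had firmer calls. H2afz, encoding the histone variant H2A.Z, stood at 288 and 383 CPM in Control and 170.5 and 152 CPM in Fracture (log2 fold change -0.94 ± 0.14 (SE), edgeR adjusted p = 0.0022). Hmgb2, encoding a DNA-bending chromatin protein, stood at 724 and 820.3 CPM in Control and 413 and 432 CPM in Fracture (log2 fold change -0.76 ± 0.12 (SE)). Lbr, the lamin B receptor of the inner nuclear membrane, stood at 139 and 176 CPM in Control and 86.1 and 77.5 CPM in Fracture (log2 fold change -0.81 ± 0.13 (SE)). In each of the 3 genes the lowest Control value was above the highest Fracture value.

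Ccnd1 fell, and Myc and Cdkn1a rose. Ccnd1, encoding the G1 cyclin D1, stood at 91.2 and 94.8 CPM in Control and 29 and 41 CPM in Fracture, a log2 fold change of -1.28 ± 0.16 (SE) (edgeR adjusted p = 0.00078). Myc, a transcription factor that promotes growth, stood at 22.2 and 10 CPM in Control and 36.8 and 33.8 CPM in Fracture, a log2 fold change of 1.02 ± 0.23 (SE) (edgeR adjusted p = 0.015). Cdkn1a, encoding the cyclin-dependent kinase inhibitor p21, stood at 103 and 82 CPM in Control and 271 and 255 CPM in Fracture, a log2 fold change of 1.58 ± 0.13 (SE) (edgeR adjusted p = 4.8e-05). None of these 3 genes overlapped between the groups. Over the 29 cyclins, kinases and regulators 2 were higher and 4 lower (median -0.06), and over the 12 inhibitors 1 was higher and 2 lower (median -0.08). Both shares of higher genes lay below the 9.64% of all genes and both shares of lower genes above the 6.46%, and DESeq2 called 1 gene higher and 1 lower in each list. Of 14 tested p53 targets, which include Cdkn1a, 4 were higher and 0 lower (median 0.41), and with DESeq2 2 of 14 were higher. Phlda3, a p53 target that restrains AKT, stood at 9.97 and 8.2 CPM in Control and 30.6 and 27 CPM in Fracture (log2 fold change 1.70 ± 0.20 (SE)), while Mdm2, which encodes the ubiquitin ligase of p53, stood at 48.4 and 38.3 CPM in Control and 52.5 and 52 CPM in Fracture and was not called (a gene named after its value was seen).

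**Figure D4:**
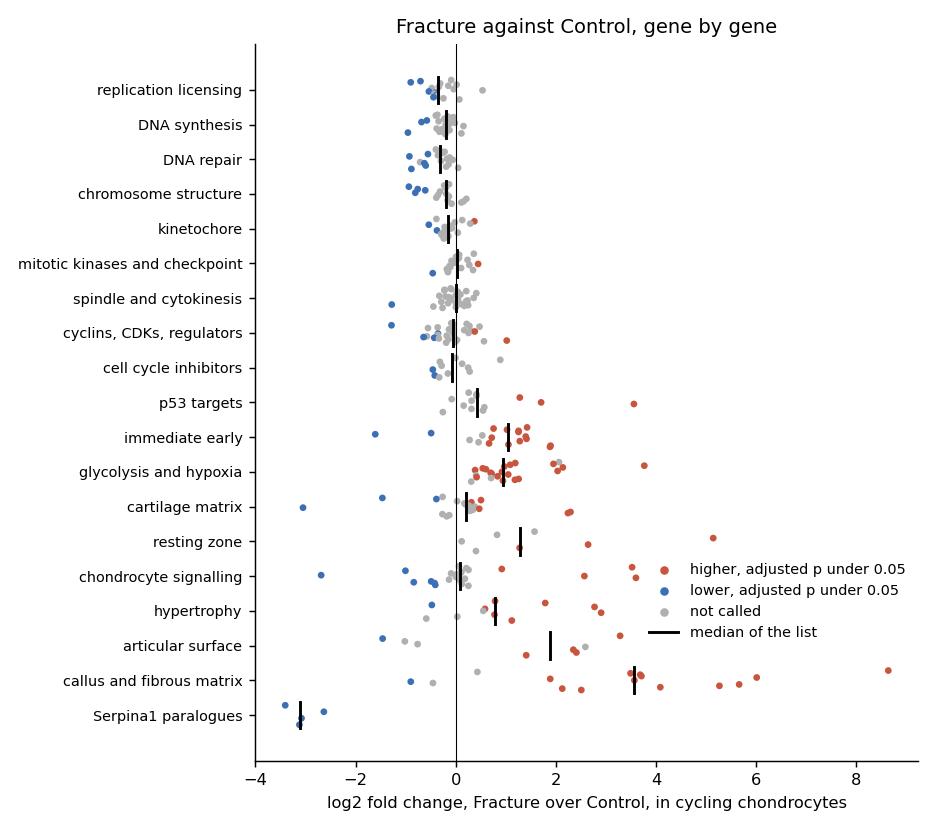
log2 fold change of Fracture over Control in cycling chondrocytes (x axis) for tested genes of 19 lists (rows), coloured by call. Genes that stand in several lists, such as Cdkn1a, and the genes of the rule are not drawn. A black bar marks the median of the list, which includes the genes in several lists. Genes with at most 3 UMIs in Control are drawn at their fitted value, which depends on the prior count of the fit. The spindle and mitotic kinase lists centre near 0, and the kinetochore, replication and repair lists lie slightly to the left. The callus, articular, resting zone, glycolysis and immediate early lists lie to the right.

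Most immediate early genes rose. Of 18, which include heat shock genes, 13 were higher and 2 lower (median 1.04). Socs3, encoding a feedback inhibitor of cytokine signalling, stood at 218 and 118 CPM in Control and 632 and 559 CPM in Fracture (log2 fold change 1.89 ± 0.22 (SE), edgeR adjusted p = 0.00053). Zfp36, encoding a protein that destabilises AU-rich mRNA, stood at 200.03 and 89.3 CPM in Control and 546 and 485 CPM in Fracture (log2 fold change 1.88 ± 0.27 (SE), edgeR adjusted p = 0.0015). Atf3, a stress-induced transcription factor, stood at 59 and 52.9 CPM in Control and 143 and 141 CPM in Fracture (log2 fold change 1.42 ± 0.11 (SE)). The heat shock gene Hspa1b moved the other way, at 47.3 and 78.4 CPM in Control and 12.3 and 22.4 CPM in Fracture (log2 fold change -1.61 ± 0.29 (SE)). Control preparation 2 was the lowest of the 4 for Socs3 and Zfp36.

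Glycolysis and hypoxia genes were higher in 19 of 23, lower in 0 (median 0.94). Hk2, encoding hexokinase 2, stood at 25.1 and 36.5 CPM in Control and 90 and 125 CPM in Fracture (log2 fold change 2.03 ± 0.22 (SE), edgeR adjusted p = 0.00028). Ankrd37, a target of hypoxia-inducible factor, stood at 3.99 and 8.2 CPM in Control and 18.5 and 18 CPM in Fracture (log2 fold change 1.95 ± 0.29 (SE)). Egln3, encoding a prolyl hydroxylase that is induced by hypoxia, stood at 1.42 and 2.73 CPM in Control and 7.97 and 6.6 CPM in Fracture (log2 fold change 2.14 ± 0.44 (SE)), with an adjusted p in edgeR of 0.15 without Control preparation 1 and 0.061 without Fracture preparation 1. Car9, encoding a carbonic anhydrase of hypoxic cells, had 2 and 1 UMIs in Control and 46 and 55 in Fracture. The non-cycling cells gave 17 of 23 higher and 0 lower (median 0.88).

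Genes of fibrous and callus matrix were 4 of the 10 largest rises, which were ordered without the marker lists of other cell types and at a mean of at least 20 CPM. Of 15 tested genes of this list 12 were higher and 1 lower (median 3.57). The list was chosen with earlier results of these libraries known, so its direction is not independent evidence. Col3a1 (GRCm38 chr1:45311538-45349706), encoding a collagen of loose and healing tissue, stood at 27.4 and 20.1 CPM in Control and 1424 and 1537 CPM in Fracture, a log2 fold change of 6.01 ± 0.17 (SE) (edgeR adjusted p = 2.5e-07). In Control 1 cell of each preparation held 87.5% and 90.9% of its UMIs. It was found in 13 and 3 members of Control (6.77% and 5.36%) and in 314 and 334 members of Fracture (82.0% and 83.7%), but free RNA adds to such shares. As a background, cells with at least 2 Ptprc UMIs, a chondrocyte sum under 5 and haemoglobin under 100 per 10000 (CD45 cells, a class chosen after seeing the data) were thinned with the members to 3000 UMIs, a depth that 187 and 52 Control members and all Fracture members reached. They numbered 861 and 440 in Control (median depth 14659 and 14147 UMIs) but only 21 and 23 in Fracture (8921 and 8714 UMIs). Their share with Col3a1 was 1.76% and 0.551% in Control and 19.1% and 27.2% in Fracture, against at most 2.18% of members in Control and 58.8% and 65.0% in Fracture. The Control members thus stood near the background for Col3a1 and the Fracture members above a background that was itself higher. Postn, encoding periostin of the periosteum, stood at 7.69 and 1.82 CPM in Control and 195 and 246 CPM in Fracture (log2 fold change 5.26 ± 0.27 (SE)), and its thinned share was 22.7% and 26.5% of Fracture members against 8.65% and 8.78% of Fracture CD45 cells. Of the 12 callus genes called higher, 10 had a larger thinned share in Fracture members than in Fracture CD45 cells. The other 2, Thy1 and Tnc (named after their values were seen), did not. These shares were not tested, and with 21 and 23 CD45 cells small differences were not detectable. Moxd1, encoding a monooxygenase-like protein, stood at 1.99 and 2.73 CPM in Control and 98.9 and 107 CPM in Fracture (log2 fold change 5.66 ± 0.21 (SE)). 1520401A03Rik had 1 and 0 UMIs in Control and 583 and 490 UMIs in Fracture, in 57 and 63 members.

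The other genes among the 10 largest rises were Fndc1, Frzb, Mt1, Mt2, Inhba and Ecm1. Frzb, encoding a secreted WNT antagonist of cartilage, stood at 1.42 and 4.56 CPM in Control and 124 and 116 CPM in Fracture (log2 fold change 5.86 ± 0.24 (SE), edgeR adjusted p = 2.7e-06). Mt1, a zinc-binding metallothionein, stood at 14 and 5.47 CPM in Control and 372 and 495 CPM in Fracture (log2 fold change 5.34 ± 0.27 (SE)). Inhba, encoding the activin beta A chain, stood at 1.42 and 4.56 CPM in Control and 30.8 and 54.5 CPM in Fracture (log2 fold change 4.38 ± 0.51 (SE)). Fndc1 had 1 and 2 UMIs in Control and 236 and 258 in Fracture. The fibroblast and tendon marker Tnmd had 0 UMIs in the 248 Control members, and 113 and 124 UMIs in 33 and 38 Fracture members. Of the 3 tested fibroblast markers 3 were higher (median 4.56), and 2 with DESeq2. The limits for mixed cells hold no fibroblast marker, so leaving those cells out is no check on them. The thinned share of Igfbp6, another fibroblast marker, was 9.17% and 8.96% of Fracture members and that of Tnmd 4.11% and 3.52%. Both were found in 0 of the 21 and 23 Fracture CD45 cells, which allows shares of up to 14.3% and 13.04%, so a difference from this background was not detectable.

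Cartilage genes divided. Of 19 matrix genes 5 were higher and 3 lower (median 0.19). Cytl1, encoding a secreted protein of cartilage, stood at 1001 and 1130.2 CPM in Control and 130.5 and 109 CPM in Fracture (log2 fold change -3.05 ± 0.14 (SE), edgeR adjusted p = 2.7e-06). Chad, encoding chondroadherin, stood at 3634 and 3652 CPM in Control and 1237 and 1214 CPM in Fracture (log2 fold change -1.47 ± 0.10 (SE), edgeR adjusted p = 2e-05). Matn4, encoding matrilin 4, stood at 56.7 and 68.4 CPM in Control and 259.6 and 275 CPM in Fracture (log2 fold change 2.24 ± 0.13 (SE)), and Matn1, encoding matrilin 1, at 31.1 and 13.7 CPM in Control and 107 and 129 CPM in Fracture (log2 fold change 2.29 ± 0.22 (SE)). Col2a1 was called higher by 0.31 ± 0.07 (SE) on the log2 scale. Among the genes of the rule, whose levels the limits bound, Acan stood at 4771 and 4565 CPM in Control and 5589.9 and 5556 CPM in Fracture, Hapln1 at 4954 and 4434 CPM in Control and 5312 and 4722 CPM in Fracture and Matn3 at 4578 and 4804 CPM in Control and 4145 and 3958 CPM in Fracture. Col10a1, held under 10 per 10000 in every member, stood at 31.1 and 12.8 CPM in Control and 303 and 293 CPM in Fracture.

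Signalling genes of the growth plate showed a like division, 4 of 23 higher and 6 lower (median 0.09). Hhip, which binds and limits hedgehog ligands, stood at 104 and 138 CPM in Control and 19.7 and 14 CPM in Fracture (log2 fold change -2.69 ± 0.18 (SE), edgeR adjusted p = 1.8e-05). Igf1 stood at 3.42 and 5.47 CPM in Control and 16.7 and 26.5 CPM in Fracture (log2 fold change 2.57 ± 0.39 (SE)) and Igf2 at 1.99 and 0 CPM in Control and 14.5 and 19.8 CPM in Fracture (log2 fold change 3.60 ± 0.48 (SE)), both encoding insulin-like growth factors. Sox9 was called lower, by -0.41 ± 0.11 (SE) on the log2 scale. In none of these 4 genes did the groups overlap.

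Of 11 hypertrophy genes 7 were called higher and 1 lower (median 0.77), in members from which cells above the Col10a1 and Ihh limits had been left out. For 2 of the 7, Ibsp and Mmp13, the thinned share of Fracture members was not above that of CD45 cells in both preparations. Ibsp stood at 143 and 94.8 CPM in Control and 861 and 684 CPM in Fracture (log2 fold change 2.77 ± 0.19 (SE)). Its thinned share was 14.1% and 8.79% of members and 13.9% and 6.95% of CD45 cells in Control, and 43.6% and 44.8% of members and 37.7% and 49.3% of CD45 cells in Fracture. In Control preparation 2 a single cell held 79.8% of the Ibsp UMIs, and in Fracture 5 cells of each preparation held 41.5% and 50.1%. Mmp13, encoding a collagenase, stood at 14.5 and 5.47 CPM in Control and 71.6 and 96.5 CPM in Fracture (log2 fold change 2.90 ± 0.27 (SE), edgeR adjusted p = 0.00012). Its thinned share in Fracture was 15.1% and 11.7% of members and 14.3% and 22.4% of CD45 cells, and 5 cells of Fracture preparation 2 held 60.7% of its UMIs. The shares of Ibsp and Mmp13 thus did not stand clearly above those of CD45 cells. Single Fracture members held up to 540 and 756 Ibsp UMIs and up to 42 and 186 Mmp13 UMIs. The higher sums are therefore not read as expression across members, and how much free RNA adds to them was not tested. Col10a1 behaved alike, with a thinned share in Fracture of 59.7% and 56.6% of members and 49.5% and 58.2% of CD45 cells. Its level over all cells was 1536 and 1068 CPM in Control and 9567 and 9130 CPM in Fracture, and the level of members was between 1.19% and 3.21% of it.

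The other 5 hypertrophy genes called higher had larger thinned shares in members than in CD45 cells of Fracture. Cd200, encoding a membrane glycoprotein, stood at 14.2 and 13.7 CPM in Control and 47.5 and 42.9 CPM in Fracture (log2 fold change 1.79 ± 0.16 (SE)), with thinned shares of 10.5% and 9.89% against 3.86% and 9.66%, so that the second pair differed little. Vegfa, the vascular growth factor of hypertrophic cartilage, stood at 33.6 and 44.7 CPM in Control and 64 and 84.5 CPM in Fracture (log2 fold change 1.12 ± 0.19 (SE)), with 15.6% and 18.8% against 5.53% and 7.002%. Of 8 articular genes 4 were higher and 1 lower (median 1.88, or 1.69 with a gene of at most 3 UMIs in a group set to a floor of 3), and 3 of the 4 were not above the CD45 cells in thinned share. Of 7 resting zone genes 3 were higher and 0 lower (median 1.28), and the 3 had larger thinned shares than the Fracture CD45 cells. These shares were not tested. Grem1, 1 of the 3, was found before thinning in only 5.22% and 5.51% of Fracture members. Before thinning Spon1, another of the 3, was found in 12.0% and 14.8% of them, and Sfrp5 in 13.8% and 21.8%. With so few CD45 cells a difference from this background was not detectable for Grem1 or Spon1. For Sfrp5 a small difference was not detectable. DESeq2 called 7 hypertrophy, 2 articular and 1 resting zone genes higher and 0 of them lower. Sfrp5, encoding a WNT antagonist, stood at 4.27 and 18.2 CPM in Control and 44.8 and 46.6 CPM in Fracture (log2 fold change 2.64 ± 0.36 (SE)), and Spon1, encoding spondin 1, at 6.55 and 2.73 CPM in Control and 11.8 and 13.2 CPM in Fracture (log2 fold change 1.28 ± 0.32 (SE)), with an edgeR adjusted p of 0.071 without Fracture preparation 2.

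Secretory, ribosome and interferon genes were also counted, beside 9.64% of all genes higher and 6.46% lower. Of 24 secretory genes 6 were higher and 1 lower (median 0.10), of 16 ribosome biogenesis genes 1 and 0 (median 0.04) and of 8 interferon genes 2 and 0 (median 0.44). P4hb, a subunit of collagen prolyl hydroxylase and a disulphide isomerase, stood at 622 and 569.6 CPM in Control and 916 and 949 CPM in Fracture (log2 fold change 0.75 ± 0.11 (SE)). Ifitm3, an interferon-induced membrane protein, stood at 31.1 and 15.5 CPM in Control and 75.4 and 66 CPM in Fracture (log2 fold change 1.52 ± 0.19 (SE)). Mixed cells held 61.5% and 41.2% of its UMIs in Control and 57.2% and 42.0% in Fracture, and without them its log2 fold change was 1.69.

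The 4 tested Serpina1 genes were all lower (median -3.10). They lie in 1 cluster on GRCm38 chr12, where Serpina1d falls within the annotated span of Serpina1b, and their sequences are nearly alike, so reads of one may have been counted for another. Serpina1a (GRCm38 chr12:103853589-103863562) stood at 714 and 1382 CPM in Control and 104 and 79.1 CPM in Fracture (log2 fold change -3.41 ± 0.28 (SE), edgeR adjusted p = 6.1e-05), and Serpina1d at 679 and 826 CPM in Control and 83.3 and 76.9 CPM in Fracture (log2 fold change -3.12 ± 0.14 (SE)). The thinned share of Serpina1a was 59.0% and 64.3% in Control and 14.3% and 12.4% in Fracture members, and at most 0.462% in CD45 cells. Serpina1a was found in 80.2% and 78.6% of members in Control and in 27.7% and 23.8% in Fracture. Without mixed cells its log2 fold change was -3.41.

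Leaving out the marker lists of other cell types, and among genes with a mean of at least 20 CPM whose groups did not overlap, Serpina1a was 1 of the 10 largest falls and the other 9 were genes of blood cells. They were Cpa3, Mcpt8, Fcer1a, Ccl4, Fcer1g, Ctsg, Tyrobp, Plac8 and Car1, which apart from Car1 are known from basophils, mast cells and other myeloid cells. Mcpt8, a basophil protease, stood at 571 and 351 CPM in Control and 10.5 and 0.643 CPM in Fracture (log2 fold change -6.33 ± 0.57 (SE), edgeR adjusted p = 9.9e-05). It was found in 104 and 13 members of Control and in 6 and 4 of Fracture, and the mixed cells held 93.5% and 97.4% of its UMIs in Control. Prss34, another basophil protease, was kept out of this order as one of the blood markers and stood at 1089.6 and 766 CPM in Control and 27.7 and 1.29 CPM in Fracture (log2 fold change -5.94 ± 0.76 (SE)), with 96.5% and 98.0% of its Control UMIs in mixed cells. In Control preparation 2 a single member held 78.7% of the Mcpt8 UMIs and 71.7% of those of Prss34. Without mixed cells the log2 fold change of Mcpt8 was -5.28, that of Ctsg -4.79, that of Plac8 -3.75, that of Ccl4 -4.07 and that of Car1 -3.54, and Cpa3, Fcer1a, Fcer1g and Tyrobp no longer had enough UMIs to be tested. For Car1 the mixed cells held 1.36% and 86.8% of the Control UMIs, and single cells held 56.5% and 71.1%.

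Markers of other cells also moved with the groups. Of 9 tested blood markers 0 were higher and 3 lower (4 and 2 of 8 without mixed cells), of 5 marrow stroma markers 0 and 1 (0 and 2 of 2), and of 5 osteoblast markers 2 and 0 (0 and 0 with DESeq2). Of 5 endothelial markers 4 were higher and 0 lower. Cdh5, encoding VE-cadherin, stood at 2.56 and 1.82 CPM in Control and 22.1 and 23.2 CPM in Fracture and was found in 7 and 2 members of Control and 31 and 36 of Fracture, where the mixed cells held 87.7% and 84.0% of its UMIs. Without mixed cells 1 of 3 tested endothelial markers was higher. Of the smooth muscle and osteoclast markers 1 of 4 and 1 of 2 were higher, and without mixed cells 0 of 2 and 1 of 2. 

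Leaving out mixed cells gave 1059 genes higher and 699 lower. Among the cell cycle lists 1 licensing gene was then higher and 5 lower, 4 DNA synthesis, 3 kinetochore, 2 spindle, 5 chromosome structure and 1 mitotic kinase genes were lower and 0 of them higher, and 1 cyclin or regulator was higher and 4 lower. Of the other lists 12 immediate early genes were higher and 2 lower, 3 of 13 p53 targets were higher, 4 cartilage matrix genes were higher and 3 lower, 3 of 22 signalling genes were higher and 5 lower, 6 secretory genes were higher and 0 lower, and 3 ribosome biogenesis genes were higher. The counts called did not move for the repair, inhibitor, callus, glycolysis, hypertrophy, articular, resting zone, interferon and Serpina1 lists. With DESeq2 0 kinetochore and 0 mitotic kinase genes were called, and of the signalling genes 3 were higher and 3 lower.

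The difference between the 2 classes was tested with a class-by-group term in edgeR over 12981 genes, with the preparation as a block. A positive term means that the log2 fold change of Fracture over Control was larger in cycling cells. The fracture difference was higher in cycling than in non-cycling cells for 231 genes (1.78%) and lower for 102 (0.786%) at a Benjamini-Hochberg adjusted p under 0.05. With RLE size factors these counts were 161 and 136, and the median term over all genes went from 0.07 to -0.01.

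Immediate early genes differed in the same direction. For them the term was higher for 10 of 18 and lower for 0 (median 0.69), and for 9 of 18 with RLE size factors or DESeq2, while without mixed cells it was higher for 12 and lower for 1. Junb, a subunit of the AP-1 transcription factor, stood at 831 and 583 CPM in Control and 1856 and 1653 CPM in Fracture in cycling cells and at 1479 and 1086 CPM in Control and 1715 and 1599 CPM in Fracture in non-cycling cells. The term was 0.98 ± 0.09 (SE) on the log2 scale (edgeR adjusted p = 0.00067). In Control both cycling values lay below both non-cycling values, and in Fracture the 2 classes overlapped. Pde4b, a phosphodiesterase that degrades cyclic AMP, stood at 46.2 and 41 CPM in Control and 154 and 142 CPM in Fracture against 74 and 68.4 CPM in Control and 118 and 114 CPM in Fracture (term 1.07 ± 0.12 (SE), edgeR adjusted p = 0.0015). Lef1, a transcription factor of WNT signalling, stood at 53.3 and 51 CPM in Control and 84.1 and 78.5 CPM in Fracture against 97.2 and 103 CPM in Control and 68.1 and 74.3 CPM in Fracture (term 1.13 ± 0.12 (SE)). Lef1 was called higher in cycling cells and lower in non-cycling cells.

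Resting zone genes had higher terms too. The term was higher for 5 of 7 genes and lower for 0 (median 1.76), and higher for 4 with RLE size factors and 3 with DESeq2. Markers of other cells had higher terms as well. It was higher for 3 of 5 endothelial markers (median 2.41) and 3 of 5 marrow stroma markers (median 1.54), and for 2 and 0 with DESeq2 and 0 of 4 and 0 of 5 without mixed cells, where the resting zone count stayed at 5 of 7. Of the 8 articular genes the term was higher for 2. In the non-cycling cells 2 of the 7 resting zone genes were higher and 4 lower in Fracture. Spon1 stood at 39 and 38.9 CPM in Control and 15.3 and 20 CPM in Fracture in non-cycling cells, where it was called lower, while it was called higher in cycling cells (term 2.32 ± 0.28 (SE), edgeR adjusted p = 0.0021). Prg4, of the articular list, was also called higher in cycling and lower in non-cycling cells, with a term of 4.34 ± 0.27 (SE) (edgeR adjusted p = 2e-05), and its rise in cycling cells had an adjusted p of 0.072 without Control preparation 1. It was found in 8.33% and 8.93% of members in Control and in 6.01% and 8.27% in Fracture, where 1 cell of each preparation held 35.9% and 38.2% of its UMIs. Its thinned share was at most 2.41% in members and 2.03% in CD45 cells, so members stood near the background. Its Fracture value in members, 11.6 and 10.9 CPM, still lay below every non-cycling value. Frzb had a term of 2.63 ± 0.36 (SE), which was 1.17 without Control preparation 1, with an edgeR adjusted p of 0.34. Sfrp5 lost its call without the same preparation (term 0.48, edgeR adjusted p = 0.53).

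The 5 genes with the smallest p among those with a lower term were Col3a1, Aspn, Tmsb4x, D17H6S56E-5 and Cenpa. Mixed cells held 75.6% and 86.7% of the Tmsb4x UMIs in Control, where 1 cell of preparation 2 held 66.7%, and without mixed cells its term was -0.51 (edgeR adjusted p = 0.0039). Aspn, encoding the matrix protein asporin, stood at 29.3 and 27.3 CPM in Control and 111 and 127 CPM in Fracture in cycling cells and at 3.77 and 2.59 CPM in Control and 271 and 246 CPM in Fracture in non-cycling cells (term -4.16 ± 0.23 (SE), edgeR adjusted p = 1.2e-05). The Control cycling cells were above the Control non-cycling cells, and the Fracture cycling cells below the Fracture non-cycling cells. Col3a1 had a term of -1.64 ± 0.18 (SE), and at its Control level single cells held most UMIs, as given above. Cenpa, encoding the centromere histone, did not differ between groups in cycling cells beyond the spread (378 and 343 CPM in Control and 369.8 and 363 CPM in Fracture) and was called higher in non-cycling cells, at 4.12 and 4.79 CPM in Control and 12 and 14.9 CPM in Fracture (term -1.60 ± 0.18 (SE)). Cdkn1a rose in both classes and less in cycling cells, with a term of -0.78 ± 0.13 (SE) (edgeR adjusted p = 0.0091). Without Control preparation 1 that term was -0.55, with an edgeR adjusted p of 0.066. Of the 30 spindle and cytokinesis genes the term was higher for 0 and lower for 4 (5 with RLE size factors or without mixed cells), Stmn1 with -0.89 ± 0.16 (SE) and Anln, Dlgap5 and Tubb5, which were named after their values were seen. Of the 12 cell cycle inhibitors it was higher for 1, Btg2, and lower for 2, Cdkn1a and Cdkn2a (3 lower with RLE size factors and 5 without mixed cells). Of the 18 licensing genes the term was called for 0, of the 18 repair genes for 1, Blm, and of the 23 glycolysis and hypoxia genes for 1, Ddit4 (named after its value was seen), or 3 higher and 2 lower without mixed cells.

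**Figure D5:**
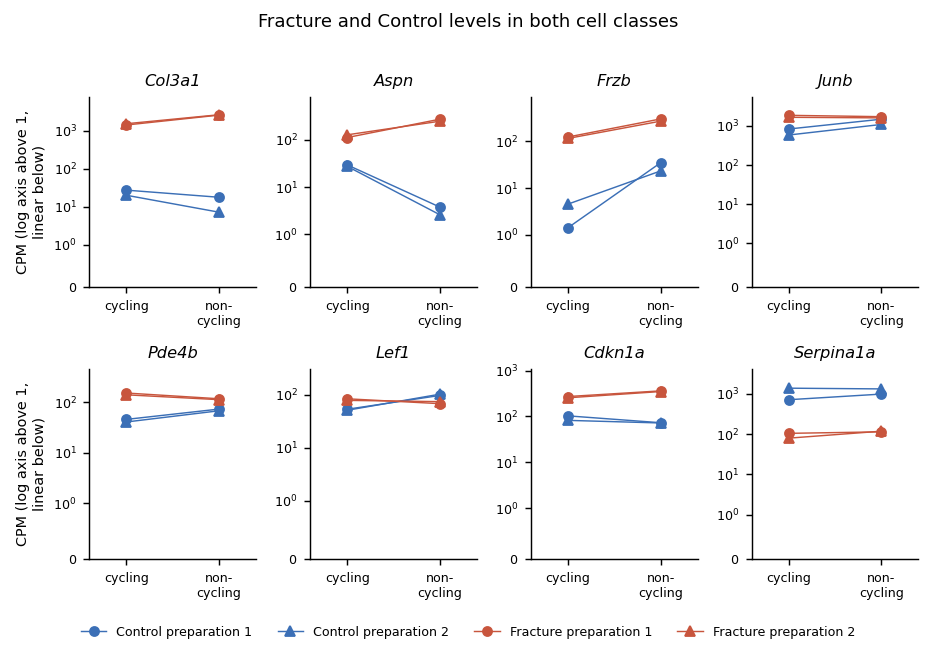
Level of 8 named genes (CPM, log axis above 1 and linear below) in cycling and non-cycling chondrocytes, with 1 line for each preparation (Control blue, Fracture red). For Junb and Pde4b the groups lay further apart in cycling cells, the Lef1 lines of the groups cross, and for Aspn and Col3a1 the Control lines fall and the Fracture lines rise towards the non-cycling cells.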

How the data were processed

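Single-cell libraries (Chromium 3' V3, sequenced on a NextSeq500) were processed by the authors, whose notes name bcl2fastq 2.19.1.403, UMI-tools 1.0.0, STAR 2.7.3a and Subread featureCounts 1.6.4 with mm10; the study's methods name STARsolo and EmptyDrops, and which of them made these tables is not given in the sources used here. The authors deposited raw UMI counts per gene and barcode, 1 table for each of 8 libraries. Doublets were not called. Members with markers of other cells were counted as mixed. The limits were at least 10 blood, 5 endothelial, 5 marrow stroma, 5 smooth muscle or 50 osteoblast UMIs per 10000 UMIs of the cell. For each preparation the counts of its cells were added and tested with edgeR 4.0.16 (quasi-likelihood, TMM, filterByExpr) in R 4.3.3, with Benjamini-Hochberg adjustment over all genes tested and a call at an adjusted p under 0.05. The steps were tested on simulated data. DESeq2 1.42.0, RLE size factors, no filter, other limits on members and leaving out each preparation were alternatives. CPM in the text is not scaled by TMM. Each SE is the absolute log2 change divided by the square root of the edgeR F statistic. Shares used exact permutation tests in scipy 1.17.1, with thinning to 3000 UMIs averaged over 100 draws. Of the 28956 genes, the 290 starting with U were left out. Named genes were the genes of the rule and its markers, up to 4 of each of 29 lists (called genes by size of change, else by level), the 10 largest rises and falls among genes called whose groups did not overlap (without the marker lists of other cell types), the 10 genes furthest above and below the non-cycling level, and up to 5 genes a direction for the class-by-group term, the last 3 kinds at a mean of at least 20 CPM. Members and lists were chosen with earlier results of these data known. The values of 1 gene that this rule names are not reported here.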

Additional observations from a re-analysis of the deposited data

Results flagged for a closer look

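The fracture difference was not alike in cycling and non-cycling chondrocytes of the same preparations, by the class-by-group term of edgeR. The log2 fold change of Fracture over Control was higher in cycling cells for 231 genes and lower for 102. A further 18 barcodes with over 6000 genes met every other limit for cycling chondrocytes. Of these, 1 came from Control preparation 1, 9 from Control preparation 2 and 8 from Fracture preparation 2. They were left out of the main comparisons and entered only the alternative with no upper limit on genes.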

How the results depend on the processing

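All values rest on 2 preparations a group, so p for shares cannot pass 0.05, and Control preparation 2 held only 56 members. In cycling chondrocytes DESeq2 gave 571 genes higher and 239 lower in Fracture, and with the genes starting with U (chosen after seeing the data, and absent from the Control preparation 1 tables) 618 and 289. With one preparation left out at a time, where the lone preparation is assumed to vary like the other group, the counts ran from 720 to 1636 higher and from 379 to 1140 lower. The lowest were both without Fracture preparation 2, and without Fracture preparation 1 447 were lower. In non-cycling cells they ran from 1381 to 3365 higher and from 778 to 3040 lower, and DESeq2 called 1292 lower. For the class-by-group term they ran from 215 to 262 higher and from 100 to 342 lower, the last without Control preparation 2. For that term DESeq2 called 59 and 66, no filter on low counts gave 397 lower, a chondrocyte limit of 80 per 10000 gave 190 lower, and leaving out mixed cells (chosen after seeing the data) gave 391 and 202. Genes at least 2-fold lower in cycling cells numbered 29 to 39 with one preparation left out, 39 without Fracture preparation 2, and 15 with the limit of 80 per 10000.

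The difference in the cycling share was -0.119 points with at least 5 UMIs, -1.49 with no upper limit on genes and -1.16 with the limit of 80 per 10000, and -0.915 to -0.421 with one preparation left out. The difference in S-leaning members was -2.97 without thinning, -4.95 with at least 2 UMIs, -2.24 with 3 UMIs per 10000, -2.38 without mixed cells, and -4.35 to -3.72 with one preparation left out. The class-by-group term changed sign for Ibsp (-0.44 with the limit of 80 per 10000), Postn (0.075 with at least 5 UMIs and 0.096 with 3 per 10000), Serpina1b (-0.51 without Control preparation 1 and 0.58 without Control preparation 2), Inhba (-0.0247 and 4.43), and for Prss34 (0.16), Mcpt8 (0.10) and Ccl4 (0.66) without mixed cells. The cause was not tested.

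Preparations of the 2 groups share only a number: deviations of same-numbered preparations correlated by 0.0715 in cycling and 0.0276 in non-cycling cells. With the replicate number as a block, 1010 genes were higher and 636 lower in cycling cells and 2589 and 2048 in non-cycling cells. Leaving out all cells with at least 3 UMIs of other markers was not run, since only 37 members remained, under 20 in each preparation.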
